A study of Rattus norvegicus with 34 samples.

Results

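The enzymes that break down uracil and thymine were followed across rat kidney, rat liver and a rat kidney cell line after exposure to monuron, a phenylurea herbicide. They are Dpyd, Dpys, Upb1, Upp1 and Upp2, and the 5 genes were chosen from measured values of these samples, as the pathway of Dpyd, the gene with the highest positive treatment difference in kidney. Dpyd is therefore described throughout with no test, and Dpys and Upb1, its pathway partners, are given with the test run over all genes. Since the set was chosen with these data in view, the p-values of Dpys and Upb1 are no independent support. The array annotation gave 1 probe set each for 4 of the enzymes, out of 14217 genes with a probe set of their own, and named none for Upp2.

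The series held 34 Affymetrix arrays. The 8 rats were Wistar-derived males of 190 to 240 g and 7 to 9 weeks of age, of which 4 were given monuron in corn oil (40 mg/kg, then 400 mg/kg on days 2 and 3) and 4 controls corn oil alone, at 5 ml/kg. Kidney and liver gave 4 monuron and 4 control arrays each, and no label ties a kidney array to a liver array of 1 rat, so the tests between the organs treat the 16 arrays as independent although 8 rats gave them. The protocol has the rats killed 72 h after the last dose, while the series title speaks of 72 h of exposure. NRK-52E cells, an established rat kidney epithelial line, gave 3 monuron and 3 DMSO arrays at each of 6, 24 and 72 h. The titles of the cell samples name monuron, but their protocol names chlorothalonil at 1.1 µM in 0.1% DMSO, so the compound given to the cells is in doubt and "monuron" below repeats the labels. The cells carried few markers of the nephron: of 10 proximal tubule markers, 9 lay at or below the array median on all arrays in 5 of the 6 cell groups and 8 in the DMSO group at 72 h, and of 5 epithelial markers Krt8 alone lay above it on all arrays of every group, while 5 or 6 of 8 fibroblast and smooth muscle markers did. Kidney arrays had 9 of 10 proximal tubule markers above the median, and liver arrays had all 10 hepatocyte markers above it.

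Free uracil and thymine are degraded in 3 steps. Dihydropyrimidine dehydrogenase (Dpyd) reduces the ring and limits the rate, dihydropyrimidinase (Dpys) opens it, and beta-ureidopropionase (Upb1) releases beta-alanine from uracil or beta-aminoisobutyrate from thymine. Uridine phosphorylases (Upp1, Upp2) feed the pathway by splitting uridine into uracil and ribose-1-phosphate. The liver is the main site, and the first enzyme also inactivates the drug 5-fluorouracil.

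On the GRCr8 assembly Dpyd lies at chr2:209293902-210159777, Dpys at chr7:72707566-72814183, Upb1 at chr20:13216693-13243016, Upp1 at chr14:88023155-88043036 and Upp2 at chr3:63681671-63726194. The bases just before the outermost start of Dpyd and Upb1 are shown as those of the first and the last enzyme of the chain, both higher in monuron kidney. Dpys was also higher there, but no such stretch was available for Dpys or Upp1. They come from RefSeq on GRCr8, chr2:209293730-209293901 on the plus strand for Dpyd and chr20:13243017-13243266 on the minus strand for Upb1, and are written 5′ to 3′ with the dioxin response core GCGTG, the core of the site bound by the aryl hydrocarbon receptor, in capitals:
Dpyd: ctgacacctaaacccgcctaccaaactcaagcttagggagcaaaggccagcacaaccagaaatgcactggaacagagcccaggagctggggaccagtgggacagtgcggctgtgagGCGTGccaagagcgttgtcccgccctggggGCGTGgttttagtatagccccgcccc
Upb1: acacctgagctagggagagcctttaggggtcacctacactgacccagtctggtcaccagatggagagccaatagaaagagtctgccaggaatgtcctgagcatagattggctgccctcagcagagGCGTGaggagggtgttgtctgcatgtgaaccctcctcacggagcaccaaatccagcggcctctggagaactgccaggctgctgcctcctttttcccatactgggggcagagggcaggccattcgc
Both strands were searched. The core occurred at 2 places in the 172 bases of Dpyd and at 1 place in the 250 bases of Upb1. Of all 33469 promoters in the table, 20.7% held it in a window of 172 bases and 25.9% in one of 250 bases. The Dpyd stretch also held 2 GC boxes (GGGCGG), found in 27.2% of windows of its length, and the Upb1 stretch 2 CCAAT boxes, found in 34% of windows of its length. No TATAAA and no TGACNNNGC, the antioxidant response core, was found in either, and no match of one motif overlapped a match of another. The 95 bases before Upp2, not shown, held no match of any of these motifs. All of these counts are of letter matches only.

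All values are log2 expression values made with GCRMA, and a percentile is the place of a probe set among all 31042 on its array. In kidney, Dpyd stood at 8.29, 7.86, 8.34 and 8.28 on the monuron arrays, against 5.46, 5.45, 5.22 and 5.32 on the control arrays. The groups were far apart, with 2.40 between the lowest monuron and the highest control array, and monuron replicate 2 was the lowest of its group. The monuron kidneys averaged 8.19 ± 0.22 and the control kidneys 5.36 ± 0.11 (SD, n = 4 each), a difference of 2.83 (SE 0.13), or 7.10-fold. That was the highest positive difference among the 9542 genes tested in kidney, a rank that its choice already reflects. Within the array, Dpyd moved to percentile 73.6 to 77.6 in monuron kidneys, against 56.2 to 57.6 in control kidneys. In bulk tissue, more cells of a type and more RNA per cell cannot be told apart.

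In liver, Dpyd stood at 11.83, 11.50, 11.72 and 11.55 on the monuron arrays, against 10.38, 10.68, 11.12 and 10.96 on the control arrays. The groups did not overlap, but the gap was 0.38, and the control livers spread more widely than the monuron livers. The means were 11.65 ± 0.15 in monuron livers and 10.78 ± 0.33 in control livers (SD, n = 4 each), a difference of 0.87 (SE 0.16), or 1.82-fold, the 97th highest of 9361. The kidney difference exceeded the liver difference by 1.96 (SE 0.21). None of these differences is tested here, since Dpyd was picked with them in view.

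**Figure D1:**
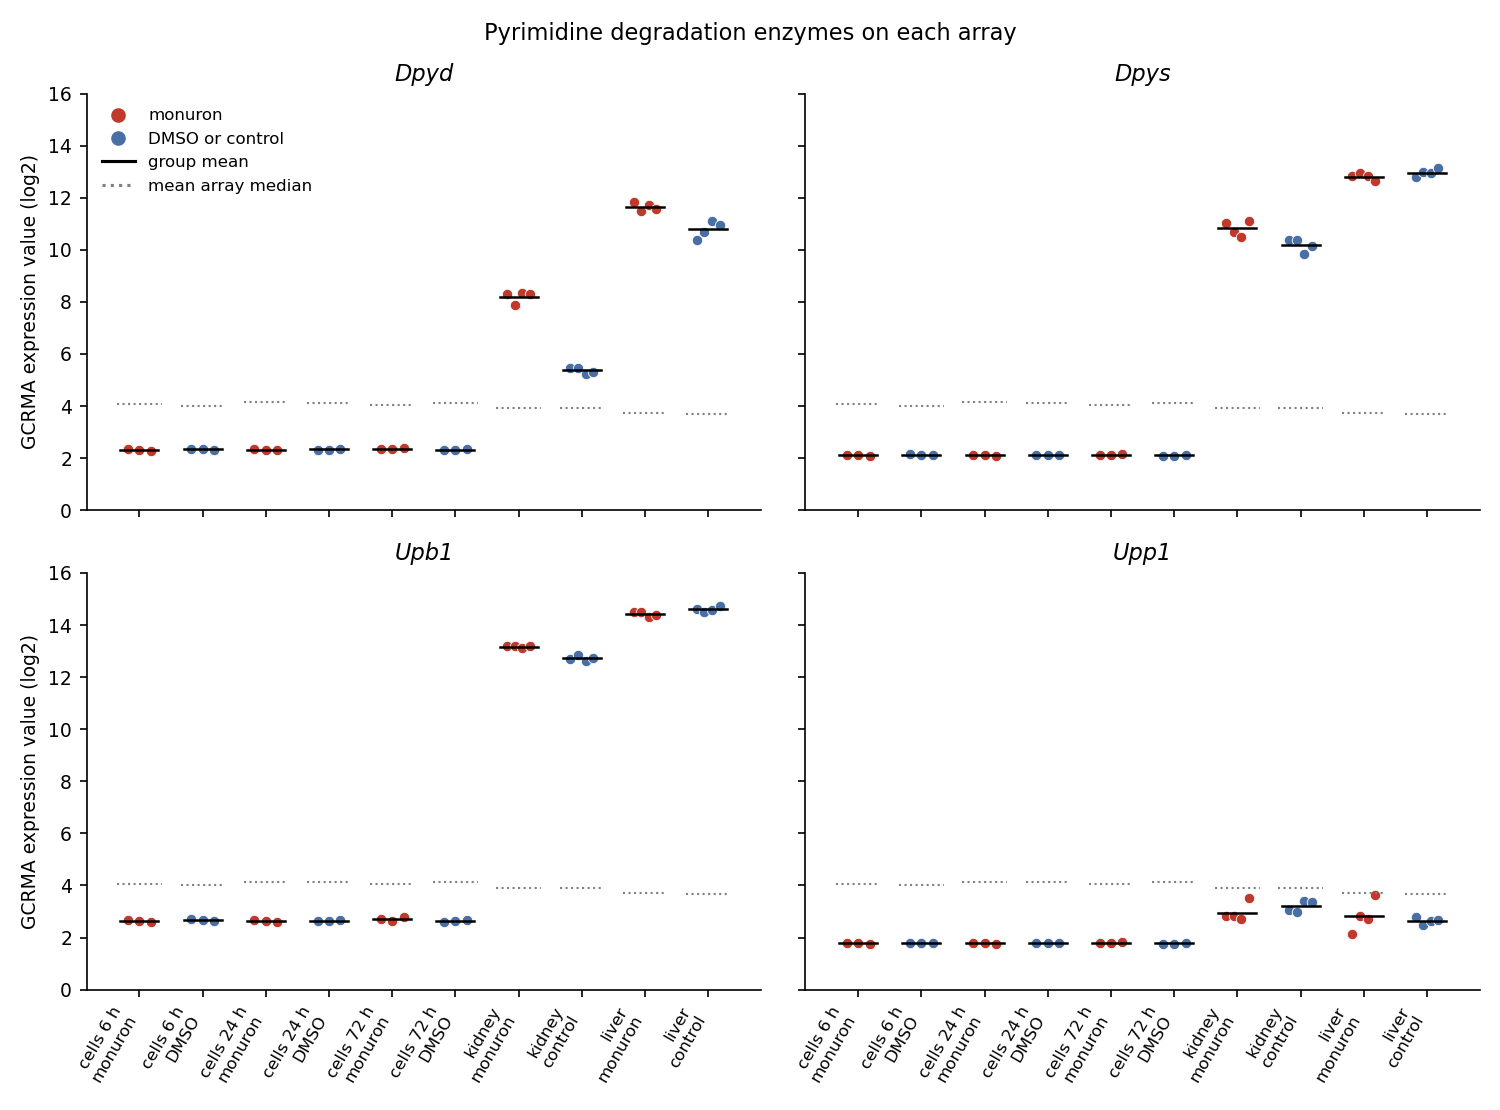
Each point is 1 array, and the vertical axis is the GCRMA expression value (log2) of the 4 measured enzymes, with monuron groups in red and DMSO or control groups in blue. Dpyd lay between 7.86 and 8.34 on the monuron kidney arrays, against 5.22 to 5.46 on the control kidney arrays, and all 4 enzymes lay under the mean array median (dotted) in the cells.

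Dpys, the second enzyme, was also higher in monuron kidneys. It stood at 11.04, 10.69, 10.49 and 11.12 on the monuron arrays, against 10.38, 10.36, 9.84 and 10.14 on the control arrays. The groups did not overlap, although 0.11 was all that separated them. The difference was 0.65 (SE 0.16, 95% interval 0.29 to 1.01), or 1.57-fold, with an adjusted p of 0.0336 in limma over all genes. This call was close to the threshold: 5 of the 8 fits that left out 1 array no longer made it, with adjusted p up to 0.0932, the value without control replicate 3.

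In liver, Dpys was high in both groups, at 12.85, 12.94, 12.82 and 12.63 on the monuron arrays, against 12.81, 12.99, 12.93 and 13.13 on the control arrays. The groups overlapped. The difference was -0.15 (95% interval -0.35 to 0.05, adjusted p = 0.322 in limma). The kidney difference exceeded the liver difference by 0.81 (SE 0.19, adjusted p = 0.0388 in the joint limma fit), and 9 of 16 fits without 1 array lost that call, with adjusted p up to 0.0777.

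Upb1, the last enzyme of the chain, gave the tightest kidney values. The monuron arrays read 13.18, 13.18, 13.12 and 13.20, against 12.69, 12.87, 12.62 and 12.72 on the control arrays. All monuron arrays lay within 0.08 of each other and above all control arrays, by 0.25 at the closest. The difference was 0.44 (SE 0.06, 95% interval 0.31 to 0.58), or 1.36-fold, with an adjusted p of 0.00374 in limma, and the call was kept in all 8 fits without 1 array, with adjusted p up to 0.0157.

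In liver, Upb1 read 14.50, 14.51, 14.31 and 14.38 on the monuron arrays, against 14.62, 14.51, 14.58 and 14.72 on the control arrays. The monuron values were the lower ones but nearly touched the control values. The difference was -0.18 (SE 0.07, 95% interval -0.33 to -0.03) and did not pass after adjustment over all genes (adjusted p = 0.144 in limma). The kidney difference exceeded the liver difference by 0.63 (SE 0.09, adjusted p = 0.00122 in the joint limma fit), and all 16 fits without 1 array kept that call. For Dpys and Upb1 the kidney differences were positive and the liver differences negative but not past the test, whereas every Dpyd value of monuron samples lay above those of controls in both organs.

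In kidney, 10.2% of genes tested were called in either direction, 3.87% higher and 6.34% lower. A share of 5.74% had monuron arrays all above control arrays. Dpyd, Dpys and Upb1 all had this order, but they were chosen with this contrast in view, so nothing is read from that count. In liver the shares called were 3.12% in all, 1.1% higher and 2.02% lower, and in the organ comparison 1.59% of genes had a higher kidney difference. The median difference of all genes was -0.08 in kidney and -0.07 in liver.

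**Figure D2:**
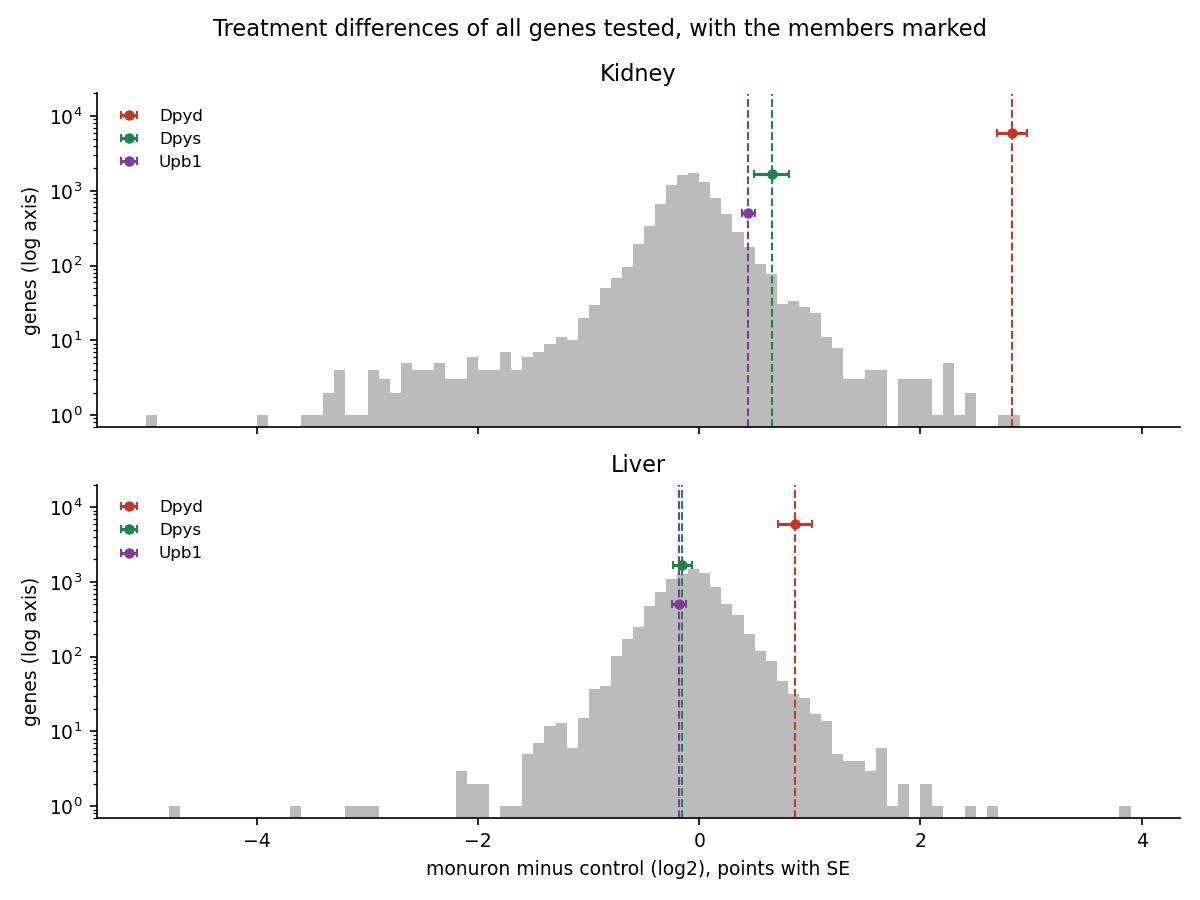
Grey bars count the genes (log axis) by their monuron minus control difference (log2) in kidney above and liver below, and coloured points with SE mark the 3 enzymes past the filter. In kidney Dpyd sits at the far right at 2.83, with Dpys at 0.65 and Upb1 at 0.44, while in liver Dpyd is at 0.87 and the other two lie left of 0.

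Upp1 was near the bottom of the scale. Its kidney values were 2.81, 2.82, 2.69 and 3.52 on the monuron arrays, against 3.04, 2.97, 3.42 and 3.38 on the control arrays. Its liver values were 2.14, 2.81, 2.71 and 3.62 on the monuron arrays, against 2.79, 2.47, 2.62 and 2.66 on the control arrays. All 16 lay under their array's median, so the gene was tested in no fit, and its groups overlapped in both organs.

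Across sample types the value distributions differ, so the order of levels is a description. In control samples Upb1 was at percentile 97.8 to 98.1 in kidney and 99.6 to 99.7 in liver, Dpys at 88.2 to 91.1 in kidney and 97.95 to 98.3 in liver, and Dpyd at 56.2 to 57.6 in kidney and 91.1 to 94.1 in liver. Liver was thus the higher organ for each of the 3, and Dpyd was the one furthest from its liver level in control kidney. On the linear scale the monuron kidneys carried 16.6% of the Dpyd level of control livers, against 2.33% in control kidneys.

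In NRK-52E cells none of the 4 enzymes rose above the array median on any of the 18 arrays. Dpyd spanned 2.29 to 2.40, Dpys 2.08 to 2.15, Upb1 2.59 to 2.78 and Upp1 1.76 to 1.81. At 6 h Dpyd read 2.34, 2.33 and 2.29 with monuron, against 2.36, 2.34 and 2.33 with DMSO. At 24 h it read 2.35, 2.33 and 2.30 with monuron, against 2.32, 2.33 and 2.35 with DMSO. At 72 h it read 2.37, 2.33 and 2.40 with monuron, against 2.30, 2.31 and 2.35 with DMSO. At levels this far under the array median, neither a difference nor its absence can be read.

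Liver transcripts were looked for in the kidney arrays, since Dpyd is abundant in liver. Of 10 hepatocyte markers, 5 lay above the array median on all monuron kidney arrays and 4 on all control kidney arrays, and the log2 of their summed level ran from 10.32 to 12.46 in monuron kidneys, against 8.60 to 10.14 in control kidneys. Of the 6 markers past the filter, Apoh (2.21, adjusted p = 0.00588 in limma) and F2 (1.19, adjusted p = 0.0174 in limma), a plasma protein and prothrombin, rose in kidney and none fell, while the other 4 did not pass, with differences of 2.43 for Alb, 1.30 for Cyp2c11, 1.25 for Ttr and -1.17 for Cps1 (adjusted p = 0.228 in limma). Albumin (Alb) read 8.93, 10.54, 11.84 and 9.13 in monuron kidneys, against 7.68, 7.50, 9.24 and 6.30 in control kidneys. Its highest arrays, monuron replicates 2 and 3, were the lowest and the highest for Dpyd. Apoa1 and Tat lay between 2.26 and 2.36 in monuron kidneys and between 2.08 and 2.33 in control kidneys. Ahsg read 2.95, 5.27, 6.57 and 3.68 in monuron kidneys, against 2.93, 2.85, 3.32 and 2.77 in control kidneys. Serpina1 read 2.19, 3.78, 5.98 and 2.26 in monuron kidneys, against 2.24, 1.86, 3.68 and 2.15 in control kidneys. None of Apoa1, Tat, Ahsg and Serpina1 passed the filter. Urate oxidase (Uox), a liver enzyme, averaged 13.4 in control livers. It lay between 2.04 and 2.07 in monuron kidneys and between 2.03 and 2.04 in control kidneys. Urah, the enzyme after it, averaged 4.75 in monuron kidneys and 2.69 in control kidneys, against 13.3 in control livers. As a share of the control liver level, the highest monuron kidney array reached 4.50% for Alb, 3.11% for Cyp2c11, 1.02% for F2 and at most 0.471% for the other 7 markers. For Dpyd the highest monuron kidney array reached 18.35%. The mean share was 16.6% in monuron and 2.33% in control kidneys for Dpyd, and 1.36% and 0.252% for Alb. In control livers Alb lay at 16.29 to 16.34, near the array maxima in liver (16.27 to 16.43). Its shares may therefore not be on a like scale with those of Dpyd. With both high-albumin arrays left out the Dpyd difference was 2.92, the Dpys difference 0.90 (adjusted p = 0.0455 in limma) and the Upb1 difference 0.46 (adjusted p = 0.0477 in limma). The 2 arrays were picked after the data were seen. Among proximal tubule markers Cubn (1.01, adjusted p = 0.000252 in limma) and Lrp2 (0.63, adjusted p = 0.00374 in limma), the receptors that take up filtered protein, rose in kidney, and the other 7 tested did not pass. Ptprc, a pan-leukocyte marker, also rose there (0.46, adjusted p = 0.0409 in limma). It was the only lymphocyte marker tested in kidney, and the macrophage markers Csf1r (0.13) and Adgre1 (0.34) did not pass. Vwf, 1 of 4 endothelial markers tested, rose by 1.04 (adjusted p = 0.00479 in limma). The others did not pass and had small differences of mixed sign (Pecam1 0.09, Kdr -0.05, Tek -0.21). The epithelial keratin Krt8 fell by 0.61 (adjusted p = 0.0125 in limma), the only 1 of 5 epithelial markers tested to pass. In liver Aqp1 (5.80 ± 0.77 in monuron livers and 3.69 ± 0.27 in control livers), Slc22a8 (11.97 ± 0.14 and 11.35 ± 0.16) and Vim (9.09 ± 0.05 and 8.51 ± 0.14, SD, n = 4 each, same order) rose (adjusted p = 0.0228, 0.0228 and 0.0251 in limma). Aqp1 and Slc22a8 were 2 of 5 proximal tubule markers tested, and Lrp2 (0.01), Slc34a1 (0.20) and Miox (-0.19) did not pass. Vim was the only 1 of 6 fibroblast and smooth muscle markers tested to pass, and 0 of 10 hepatocyte markers passed. Aqp1 control livers averaged near the array median, which ran from 3.66 to 3.78 in liver. The part of these shifts in the kidney and liver differences of the enzymes and of the other genes was not tested.

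**Figure D3:**
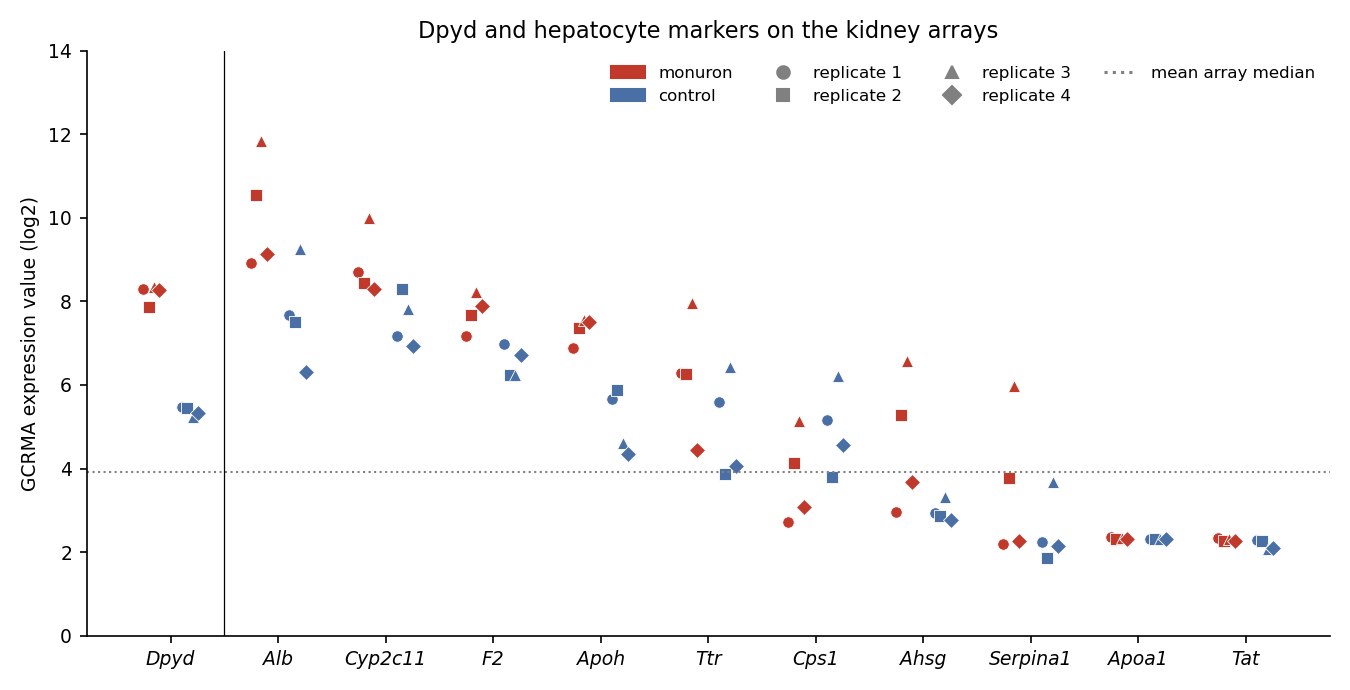
Points show the GCRMA expression value (log2) of Dpyd and 10 hepatocyte markers on the 8 kidney arrays, monuron in red left of control in blue, with a marker shape for each replicate number and the mean array median dotted. Albumin, Ahsg and Serpina1 are highest on monuron replicates 3 and 2. Dpyd lies in a narrow band from 7.86 to 8.34 on the monuron arrays, and Apoa1 and Tat stay under the array median.

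Other genes of nucleotide metabolism were taken from 6 lists chosen with earlier results of these data known. They hold 62 genes, of which 57 had a probe set and 48 were tested in kidney. Of those 48, 14 were called in kidney (7 higher, Urah below among them, and 7 lower), 29.2% against the background of 10.2%. Leaving out 1 array lowered the calls of the lists and of the whole array together: without control replicate 3 it was 3 of 49 (6.12%, against 3.87% of all genes), and without monuron replicate 4 it was 11 of 48 (22.9%, against 9.74%). Without both high-albumin arrays it was 1 of 49 (2.04%, against 1.34%). That 1 was Urah, which was also among the 3 called without control replicate 3. Urah passed the filter through the monuron arrays alone, and the lists were chosen with results known, so nothing is read from these shares.

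The list on the uses of beta-alanine and beta-aminoisobutyrate, the products of Upb1, had 9 genes tested in kidney, of which 5 rose and none fell, with a median difference of 0.40 against -0.08 for all genes. Of all genes tested in kidney, 3.87% were called higher and 6.34% lower. Agxt2, which transaminates beta-aminoisobutyrate in mitochondria, read 14.34, 14.57, 14.44 and 14.59 in monuron kidneys, against 14.08, 14.13, 13.82 and 13.90 in control kidneys. It rose by 0.50 (SE 0.08, adjusted p = 0.0081 in limma), with no overlap. Aldh6a1, which oxidises methylmalonate semialdehyde further down, rose by 0.43 (SE 0.08, adjusted p = 0.0103 in limma), and these calls were kept without any 1 array. Abat, the GABA transaminase that also handles beta-alanine, rose by 0.36 (adjusted p = 0.0291 in limma). The remaining 2 make rather than use such products: Csad (cysteine sulfinate decarboxylase, on the route to taurine) rose by 0.82 (adjusted p = 0.0266 in limma) and Gadl1 (a related decarboxylase) by 0.56 (adjusted p = 0.0325 in limma). Each of these last 3 calls was lost in 5 to 7 of 8 fits without 1 array. Cndp1, Cndp2, Hibadh and Slc6a6 did not pass, and Slc6a6, the taurine transporter, had a difference of -0.39. The count of 5 was 2 to 4 with any 1 array left out and 0 without both high-albumin arrays. In liver 0 of 8 tested passed, and the organs differed for Csad (1.18, adjusted p = 0.0246 in the joint limma fit), a call lost in 6 of 16 fits without 1 array.

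Pyrimidine salvage had 7 genes tested in kidney, of which 3 fell and none rose, where 6.34% of all genes were called lower and 3.87% higher. Tk1, the cytosolic thymidine kinase of dividing cells, read 6.99, 6.56, 6.63 and 7.29 in monuron kidneys, against 7.82, 7.79, 7.91 and 7.51 in control kidneys. It fell by 0.89 on the log2 scale (SE 0.17, adjusted p = 0.0143 in limma), and without control replicate 3 its adjusted p was 0.053. Dctpp1, a dCTP pyrophosphatase, fell by 0.88 (adjusted p = 0.0231 in limma) and Uck1, a uridine-cytidine kinase, by 0.41 (adjusted p = 0.0234 in limma). In liver, where 2 of the 48 genes tested over the 6 lists were called (4.17%, near the 3.12% of all genes), Tk1 was the 1 of 8 to fall, by 0.63 (adjusted p = 0.0294 in limma), a call lost in 5 of 8 fits without 1 array.

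In de novo synthesis 10 genes were tested in kidney, of which Cmpk1, the UMP-CMP kinase, rose by 0.23 (adjusted p = 0.0464 in limma) and Dut, the dUTPase, fell by 0.29 (adjusted p = 0.0255 in limma). None of the 10 passed in liver. Of the nucleotidases 0 of 7 passed in kidney, and of 8 in liver Entpd5, a nucleoside diphosphatase, fell by 0.74 (adjusted p = 0.0145 in limma), a call lost in 2 of 8 such fits. Of the nucleoside transporters 0 of 5 passed in kidney and 0 of 4 in liver. In purine degradation 10 were tested in kidney, and 1 was called higher and 3 fell, where 3.87% of all genes were called higher and 6.34% lower. The higher one was Urah, which hydrolyses the product of urate oxidase, at 4.63, 4.17, 4.65 and 5.53 in monuron kidneys, against 2.34, 2.97, 3.08 and 2.36 in control kidneys. All 4 control values lay under the array median and all 4 monuron values above it, so the gene passed the filter through the monuron arrays alone and its call is no support for the list. With values under the array median set to it, the kidney difference was 0.83 (adjusted p = 0.0634 in limma) and the excess over liver 0.92 (adjusted p = 0.0733 in limma), neither past the threshold. Urad, the next enzyme, fell by 0.48 (adjusted p = 0.0409 in limma), as did the salvage enzymes Aprt by 0.26 and Hprt1 by 0.22. Apart from Tk1, Uck1 and Urah, each kidney call of this paragraph and the one before was lost in 5 to 7 of 8 fits without 1 array. Uck1 was lost in 3.

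**Figure D4:**
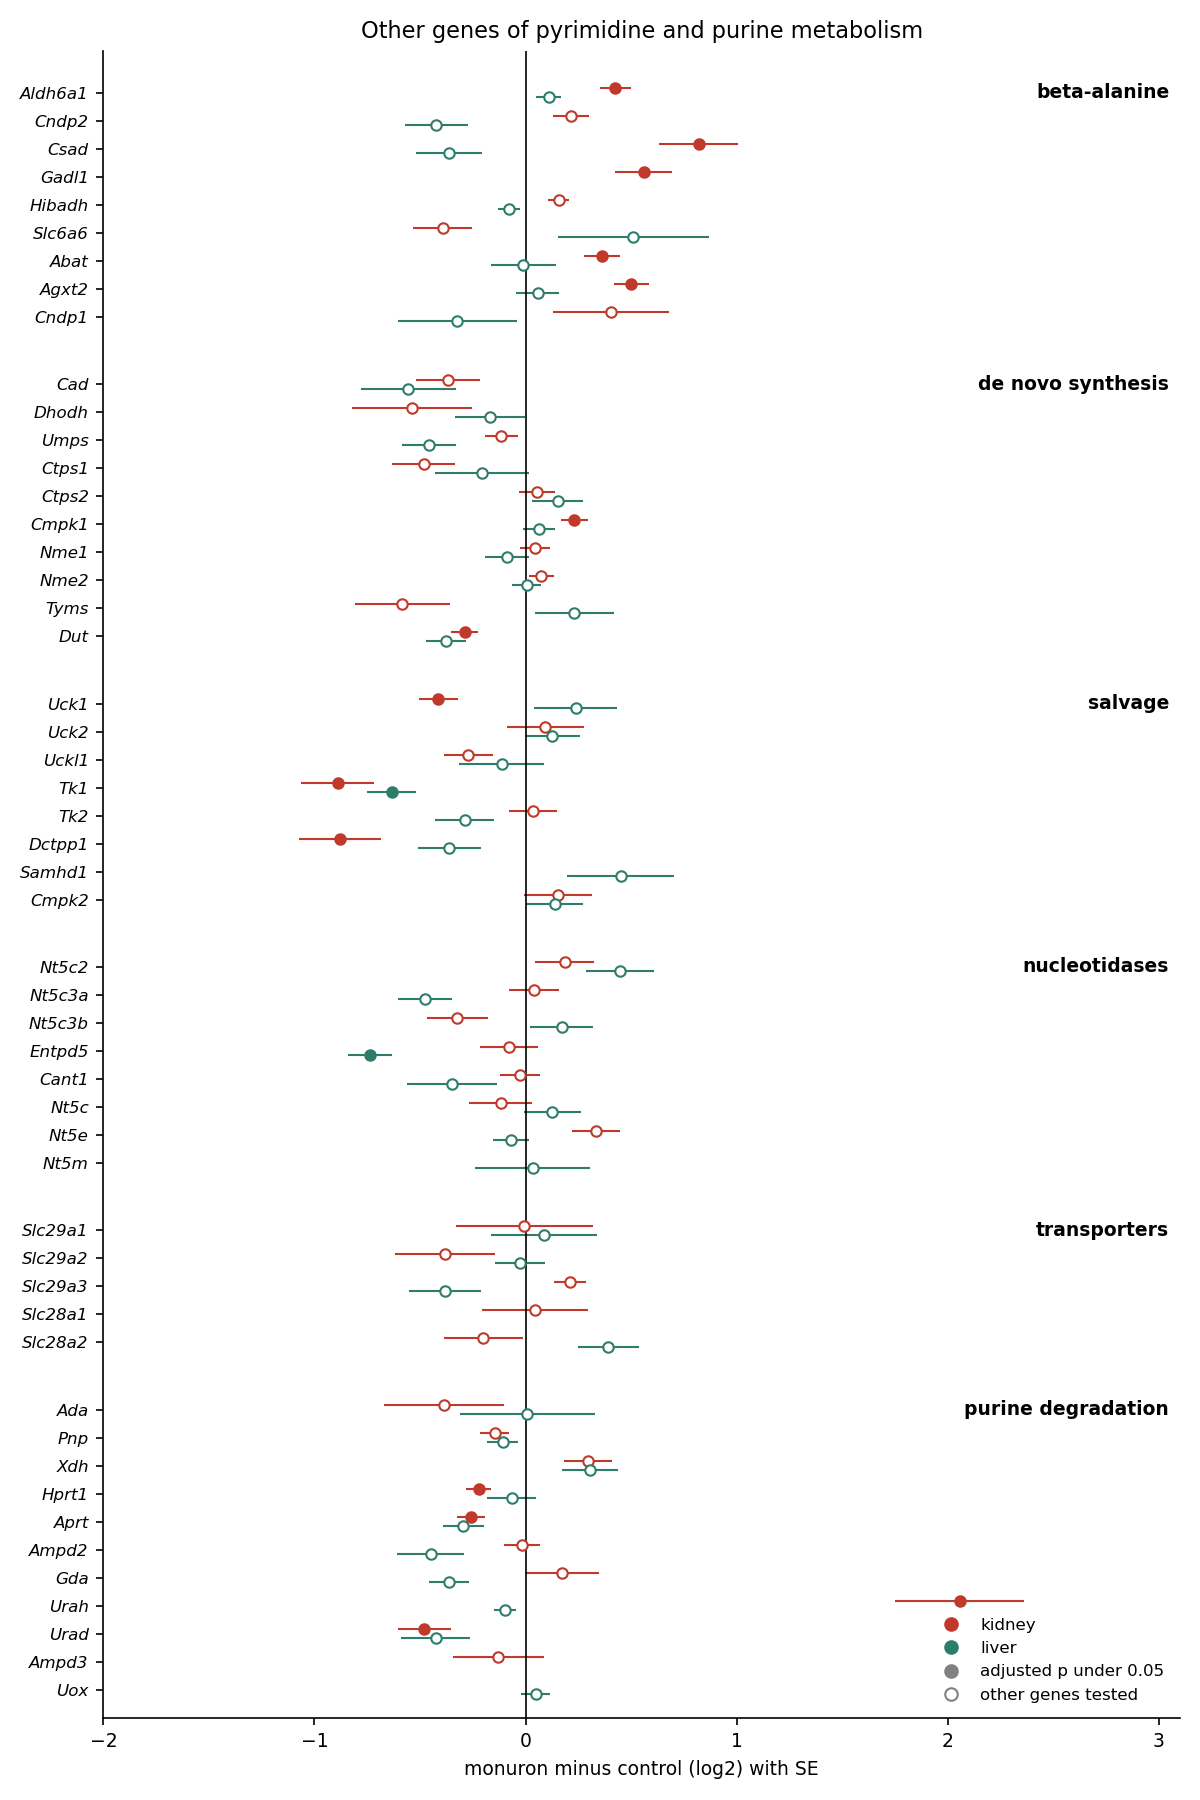
Rows are the genes of 6 lists, and the horizontal axis is the monuron minus control difference (log2) with its SE, kidney in red and liver in green, filled where the adjusted p was under 0.05. The beta-alanine list lies mostly right of 0 in kidney, with 5 filled points, salvage has 3 filled kidney points left of 0, and the kidney point of Urah at 2.06 rests on control values under the array median.

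In the cells, 40 genes of the 6 lists were tested. At 6 h 1 was called, Aldh6a1, which rose by 0.61 (adjusted p = 0.0287 in limma), against 6.31% of all genes, a call lost in 5 of 18 fits without 1 array, and with the replicate number as a block 4 were called (10%, against 11.4% of all genes). At 24 h 11 were called (4 higher, 7 lower), 27.5% against 13.6% of all genes. Among them Dhodh, which makes orotate, fell by 1.38 (adjusted p = 0.00116 in limma), and Gadl1 fell by 2.30 (adjusted p = 0.00374 in limma). Slc29a1, an equilibrative nucleoside transporter, rose by 1.66 (adjusted p = 0.00319 in limma). These 3 calls were kept without any 1 array, but the count was 7 of 42 without monuron replicate 2 (16.7%, against 5.74% of all genes) and 7 of 42 without DMSO replicate 2 (16.7%, against 6.01%). At 72 h 24 were called (12 in each direction), 60% against 61.6% of all genes, and with the replicate block 28 were called, 70% against 64.2%, so the share was near that of the whole array. There Cda, the cytidine deaminase, rose by 2.13 (adjusted p = 0.000522 in limma), while Tk1 fell by 2.25 (adjusted p = 0.000272 in limma) and Pnp, the purine nucleoside phosphorylase, by 2.29 (adjusted p = 2.46e-07 in limma). The Cda difference was 1.36 without DMSO replicate 1, and the Tk1 difference -1.42 without monuron replicate 3. DMSO replicate 3 at 72 h correlated least with the rest of its group (r = 0.991), and without it 2, 14 and 27 of 42 genes were called at 6, 24 and 72 h (4.76%, 33.3% and 64.3%, against 13.0%, 22.6% and 65.8% of all genes).

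The genes whose pattern was most like that of Dpyd were ranked by Pearson's r. Over the 34 arrays, each centred on its sample type, the 5 highest among 7323 genes were Gphn (0.83), Suclg2 (0.73), Slc41a2 (0.72), Rsrc1 (0.71) and Cmpk1 (0.70), and the 3 lowest were Nqo1 (-0.79), Spc24 (-0.79) and Prmt2 (-0.78). The SD of Dpyd was 1.52 over the kidney, 0.52 over the liver and 0.03 over the cell arrays, so this order weighs the kidney groups most. Over the 8 kidney arrays the 5 highest were Gbe1, Dmgdh, Aifm1, Sugct and Ptprk, at 0.994 to 0.989, and the 3 lowest were Bcl10, Sdf2 and Phf5a, at -0.976 to -0.975. Dpyd falls into separate treatment groups there, so these are genes whose kidney groups also stood apart. Sugct, a mitochondrial CoA-transferase, lay between 9.80 and 10.12 in monuron kidneys, against 8.24 to 8.42 in control kidneys. Dmgdh, which oxidises dimethylglycine, lay between 11.51 and 11.73 in monuron kidneys, against 9.92 to 10.37 in control kidneys. No likeness is given within the cells, where Dpyd spanned 0.11.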

How the data were processed

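RNA of 34 samples was measured on Affymetrix rat arrays. The deposited values are log2 expression values that the authors made with GCRMA, per the submitters' processing notes; its version is not given in the sources used here. An array has no read depth; how many there are sets the precision. The labels call the arrays of a group biological replicates and do not tie an array to a named rat.

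Of 31099 probe sets, 57 controls were left out, 20826 carried 1 gene symbol and 436 several. Each gene was tested on its probe set with the highest mean, if it exceeded the array median on no fewer arrays than the smallest group holds. limma 3.58.1 in R 4.3.3 (lmFit, eBayes with trend) gave two-sided p-values, adjusted by Benjamini-Hochberg over the whole table, and 0.05 was the threshold. A single fit held the cells as 6 groups, each organ had its own, and a joint fit compared their differences, treating the arrays of both organs as independent, since the labels do not tie them to rats. The fits were tested on simulated data. Changes of the cells between times were not reported, since no enzyme passed the filter there. Members and lists were chosen with earlier results of these data known. Named genes, apart from cell type markers, are the 5 members, genes of the lists, and the 5 most and 3 least like Dpyd. From each list, up to 4 genes per comparison by adjusted p were planned, of which the text names part. In kidney it goes past that limit, with all list genes that passed and all 9 tested of the beta-alanine list. Alternatives covered the filter, the scaling, the trend, a floor, single probe sets, the block and leaving out arrays. Symbols came from the platform annotation.

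Same-numbered arrays deviated together at 6 h (correlations 0.491, 0.197 and 0.290) and 72 h (0.205, 0.167 and 0.317). Some arrays of unlike number matched better. At 6 h monuron replicate 3 correlated at 0.301 with DMSO replicate 2, and at 72 h monuron replicate 1 correlated at 0.275 with DMSO replicate 2. Whether the numbers pair the samples is thus not settled, and the labels give them no meaning. Same-numbered arrays did not deviate together at 24 h, in kidney or in liver.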

Additional observations from a re-analysis of the deposited data

Results flagged for a closer look

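On the monuron kidney arrays, Dpyd was lowest on replicate 2, at 7.86, with a gap to its neighbour that made up 0.886 of the range of the group. Upp1 was highest there on replicate 4, at 3.52, with a gap of 0.850 of the range, under the array median. Of 16 groups of 4 arrays examined, 2 stood out in this way, and chance flags about 1 in 20 groups.

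The treatment difference in kidney exceeded that in liver for Dpys by 0.81 (adjusted p = 0.0388), for Upb1 by 0.63 (adjusted p = 0.00122), for Csad by 1.18 (adjusted p = 0.0246) and for Urah by 2.15 (adjusted p = 0.00142), each tested as an interaction in the joint limma fit. The Urah value rests on control kidney values that all lie under the array median, and with such values set to the median it was 0.92 (adjusted p = 0.0733), which does not pass. Upb1 was higher on 4 of 4 monuron kidney arrays than on any control kidney array.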

How the results depend on the processing

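Of the enzyme differences, those of Dpyd kept their direction and size in every alternative run, with 2.78 to 2.94 in kidney, 0.73 to 0.98 in liver and 1.85 to 2.10 between the organs when 1 array was left out. The Upb1 calls in kidney (0.41 to 0.49) and between the organs (0.59 to 0.67) were kept in every alternative. Dpys in kidney missed the threshold with no filter (0.65, adjusted p = 0.064) and with no trend (0.65, adjusted p = 0.0508), and ranged from 0.54 to 0.77 without 1 array. Between the organs Dpys missed it with no filter (0.81, adjusted p = 0.0651) and with no trend (0.81, adjusted p = 0.0618), and ranged from 0.69 to 0.92. The cause was not tested.

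With the replicate number as a block the counts of genes called were 1030 at 6 h (571 without), 350 in kidney (974 without), 40 in liver (292 without) and 117 between the organs (271 without). The block changed no enzyme call, with adjusted p of 0.0361 for Dpys and 0.0204 for Upb1 in kidney, and it left 3 of the 14 list calls in kidney and 0 of 2 in liver. Fits on the arrays compared alone called 1375 genes at 6 h, 3217 at 24 h (1227 with all cell arrays) and 3706 at 72 h (5572 with all cell arrays). Testing every probe set gave 9043 calls among 16208 probe sets at 72 h, against 5572 among 9042 genes. In liver no filter gave 95 calls among 14217 genes. Among 9361 genes, centring gave 191 and no trend 117. Centring changed the 6 h calls to 175 higher and 389 lower, against 298 higher and 273 lower. Without both high-albumin arrays, which leaves 2 monuron kidneys, 130 genes were called in kidney and 110 between the organs. Leaving out 1 array gave 103 to 1188 calls at 6 h, 461 to 2060 at 24 h, 371 to 935 in kidney, 37 to 508 in liver and 154 to 501 between the organs.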
